A study of Homo sapiens with 6 samples.

Results

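The genes described here are 39 mouse gene symbols of the NRF2 pathway, glutathione and thioredoxin metabolism, iron handling and the defence against ferroptosis, taken by name from the 38986 symbols of the count files. All 39 were found. RNA was sequenced from 3 libraries labelled as 293T cells that overexpress wild-type STAT6 and 3 labelled Mock with a wild-type genotype. The design text describes both groups as mCherry-positive cells, and the labels say they were grown in DMEM with fetal bovine serum and antibiotics. The study asked how STAT6 acts on mitochondrial gene expression. 293T is a human embryonic kidney line, but the files hold mouse symbols, so the organism of the files and that of the labels differ. The labels do not say whether the 3 libraries of a group came from separate cultures, and p-values then measure only how these libraries vary, which may be technical variation. The files give no coordinates, and none are given here.

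NRF2, encoded by Nfe2l2, is a transcription factor that drives genes against oxidants and electrophiles. In resting cells KEAP1 binds it and hands it to a ubiquitin ligase, so much of its control is on the protein and not on its mRNA. Its targets make glutathione, reduce thioredoxin, break down heme and store iron. Ferroptosis is a form of cell death driven by iron and by peroxides of membrane lipids, and GPX4, which needs glutathione, reduces those peroxides.

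Libraries held 19894773 to 29802693 counts, and 17287 to 19367 genes had at least 1 count. Stat6, the gene the label names, was lower in the libraries labelled STAT6, at 33.6 ± 1.53 CPM (SD, n = 3) against 94.4 ± 1.48 CPM in those labelled Mock (CPM, counts scaled to a common library total, here with TMM factors). The mouse symbols, this Stat6 level and the markers that follow all go against the labels, so the files may not hold the labelled cells, and each comparison is between libraries as labelled, not a measured effect of STAT6. The libraries are therefore called by their labels throughout, and "higher" or "lower" always refers to the group labelled STAT6 relative to Mock. Of 7 embryonic kidney markers Pax8, Six2 and Umod had 0 counts in all libraries, and the summed level of the 7 was 3.13 to 3.54 CPM in the libraries labelled STAT6, nearly all from Lhx1, and 0 in those labelled Mock. All 7 melanocyte markers were detected, with sums of 16691 to 16827 CPM against 14394 to 14740.4 CPM. Most of that sum came from Tyrp1, Dct and Pmel, and single markers moved both ways: Dct was higher (log2 fold change 0.54), while Tyr went from 303 ± 5.29 to 29.1 ± 0.757 CPM (-3.38) and Pmel was slightly lower (-0.06). Summed markers of other cell types also differed between the groups. Fibroblast markers stood at 78.5 to 84.9 against 18.8 to 20.6 CPM. Col1a1 was higher there (78.7 ± 3.14 against 4.85 ± 0.420 CPM) and Col1a2 lower (2.14 ± 0.141 against 13.4 ± 1.46 CPM), while Dcn, Lum and Thy1 had 0 counts under the STAT6 label and 1 count each under Mock. Macrophage markers stood at 3.72 to 4.58 against 1.60 to 1.91 CPM with Adgre1 at 0. Endothelial markers reached 2.24 to 2.79 against 0.905 to 1.43 CPM with Cdh5 at 0, and epithelial markers 2.21 to 2.69 against 0.517 to 0.824 CPM with Epcam at 0. Erythroid markers did not exceed 0.206 CPM in any library, and Hbb-bs, Hba-a2 and Alas2 had 0 counts. The part of other cell types in the results below was not tested.

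The lipid peroxide defences Gpx4 and Aifm2 and the glutathione synthetase Gss were each at least 2-fold higher in the libraries labelled STAT6, and Hmox1, Gpx1 and the ferritin heavy chain Fth1 were also higher. The thioredoxin genes, Prdx1, the rate-limiting glutathione enzyme Gclc, catalase and the glutathione transferases Gstm1 and Gstp1 were lower. So were the ferritin light chain Ftl1 and the iron uptake and export genes Tfrc and Slc40a1. Of the 38 members that passed the filter on low counts, 11 were higher, 21 were lower and 6 did not pass (edgeR quasi-likelihood test, adjusted p under 0.05 over all 12938 genes tested). Most of the transcriptome differed between these groups: 72.6% of all tested genes were called, 35.8% as higher and 36.8% as lower. The called share of the members was 84.2%, with 28.9% higher and 55.3% lower. Their median log2 fold change was -0.24, beside -0.0033 for all tested genes, while the median size of the change regardless of sign was 0.35 for both. Groups did not overlap for 33 of the 38 members (86.8%) and for 74.6% of all tested genes. A change of at least 2-fold was called in 5 members (13.2%), 3 higher and 2 lower, and in 15.5% of all tested genes. The 2 lower ones were Nqo1 and Gsta4. Of the 38, Nqo1 and Gsta4 passed the filter only through the libraries labelled Mock, so that a difference was built into their passing. The shares above include both genes. Without this pair 11 were higher, 19 lower and 6 not called, with a median of -0.22. The 39 genes together took 0.974% ± 0.0111 of all counts under the STAT6 label and 1.05% ± 0.0103 under Mock, without overlap. Here and below, shares of all counts use library totals without TMM factors. Those factors were 0.968 to 0.980 under the STAT6 label and 1.02 to 1.03 under Mock. With them this gap would be smaller.

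**Figure D1:**
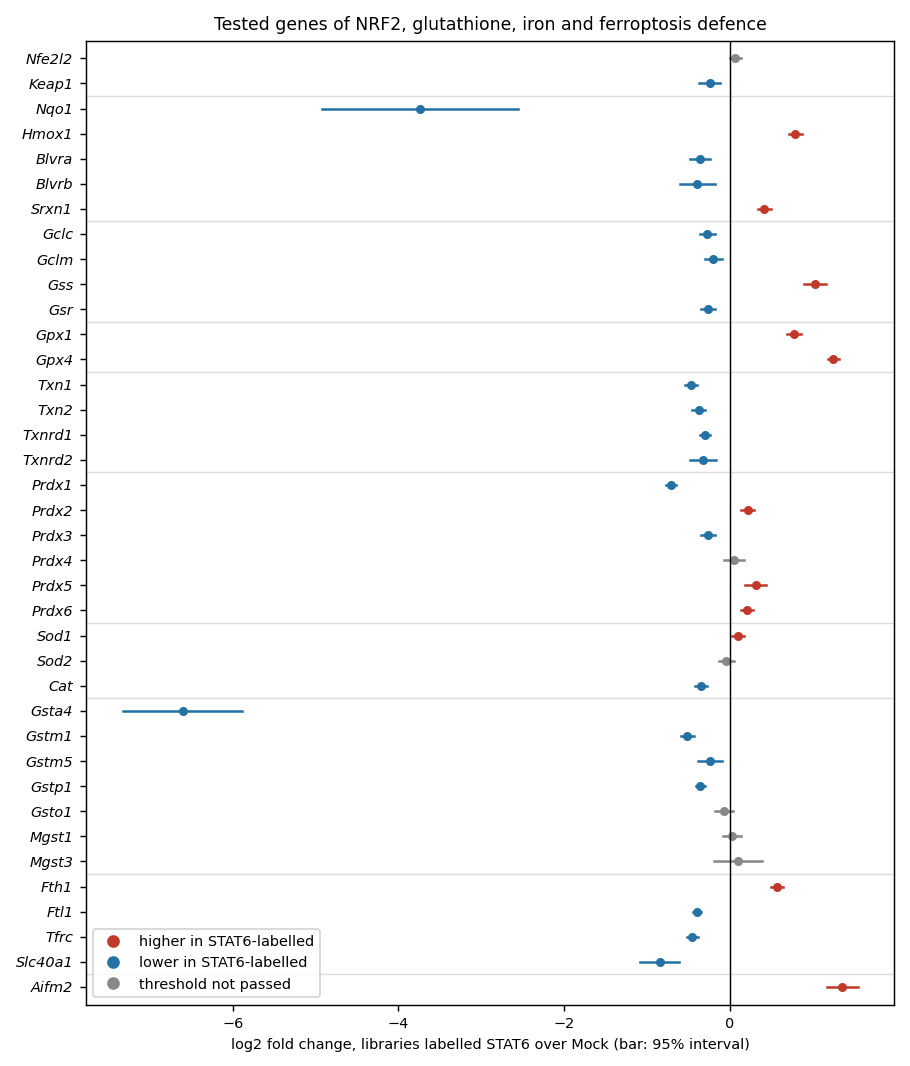
Log2 fold change (x axis, libraries labelled STAT6 over Mock) with its 95% interval for each of the 38 tested genes (y axis), grouped by role between the grey lines. Aifm2 (1.36) and Gpx4 (1.25) lie farthest to the right, and Gsta4 and Nqo1, with few counts under the STAT6 label, lie farthest to the left.

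The regulators themselves moved little. Nfe2l2 stood at 146, 152 and 147 CPM in the libraries labelled STAT6 and at 143, 141 and 140.2 CPM in those labelled Mock. The groups did not overlap, but the difference did not pass the threshold (log2 fold change 0.07, 95% interval -0.00052 to 0.14, adjusted p = 0.0692), and its sign turned when libraries were scaled to their totals alone (-0.0056). Keap1, the sensor that holds NRF2 back, was lower, at 23.2 ± 0.625 against 27.3 ± 1.39 CPM (-0.24, SE 0.06, adjusted p = 0.000541).

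Among the enzymes often read as reporters of NRF2, members moved in opposite directions. Hmox1, the heme oxygenase that opens the heme ring and frees its iron, was measured at 121, 115 and 116 CPM in the libraries labelled STAT6 and at 71.1, 63.8 and 68.1 CPM in those labelled Mock. It rose 1.73-fold (log2 fold change 0.79, SE 0.04, adjusted p = 6.85e-19), every library labelled STAT6 lying above every one labelled Mock. Srxn1, the sulfiredoxin that repairs over-oxidised peroxiredoxins, rose as well, from 68.6 ± 1.66 to 91.7 ± 2.50 CPM (0.42). The biliverdin reductases, which act on the product of heme oxygenase, fell: Blvra by 0.36 and Blvrb by 0.39 on the log2 scale. Nqo1, a quinone reductase and a classic NRF2 target, was barely expressed in any library. It had 3, 1 and 0 counts in the libraries labelled STAT6 and 17, 14 and 40 in those labelled Mock. Since it passed the filter only through Mock, its fitted log2 fold change of -3.74 is a description, and it moved to -4.90 without STAT6 replicate 1 and to -3.21 without STAT6 replicate 3. Its highest level was 1.31 CPM, in Mock replicate 3.

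Glutathione synthesis was divided between its steps. GCLC and GCLM form the enzyme of the first, rate-limiting step, and GSS carries out the second. Gclc was measured at 53.1, 54.7 and 51.0 CPM in the libraries labelled STAT6 and at 65.2, 62.9 and 63.2 CPM in those labelled Mock. Gclc fell without overlap (-0.27, SE 0.04, adjusted p = 1.28e-06). Gclm, the modifier subunit, fell as well, from 44.0, 43.0 and 41.9 CPM to 37.3, 39.7 and 35.3 CPM (-0.20, SE 0.05, adjusted p = 0.000808). The count ratio of Gclm to Gclc within a library was 0.707 ± 0.0169 against 0.674 ± 0.0105, a small shift without overlap. Gss went the other way, with 32.1, 28.5 and 31.4 CPM against 15.1, 14.9 and 15.1 CPM, a 2.05-fold rise (1.03, SE 0.06, adjusted p = 1.76e-16). Gsr, which regenerates reduced glutathione from its oxidised form, fell from 61.7 ± 1.23 to 51.5 ± 1.30 CPM (-0.26).

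Both glutathione peroxidases among the members rose. GPX4 is the enzyme that reduces phospholipid peroxides in membranes and the central brake on ferroptosis. Gpx4 was measured at 309.7, 299 and 295 CPM in the libraries labelled STAT6 and at 128, 122 and 129 CPM in those labelled Mock, a 2.38-fold rise (1.25, SE 0.03, adjusted p = 2.46e-27). The groups were far apart next to the spread within them. Gpx1, which reduces soluble hydrogen peroxide, rose 1.71-fold, from 50.2 ± 0.573 to 85.7 ± 2.51 CPM (0.77, SE 0.04, adjusted p = 2.54e-18). Aifm2 encodes FSP1, which keeps coenzyme Q reduced and so stops lipid peroxidation without glutathione. It stood at 16.2, 16.1 and 16.2 CPM against 5.73, 5.99 and 6.96 CPM, a 2.57-fold rise (1.36, SE 0.09, adjusted p = 1.26e-15) and the largest among the members.

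**Figure D2:**
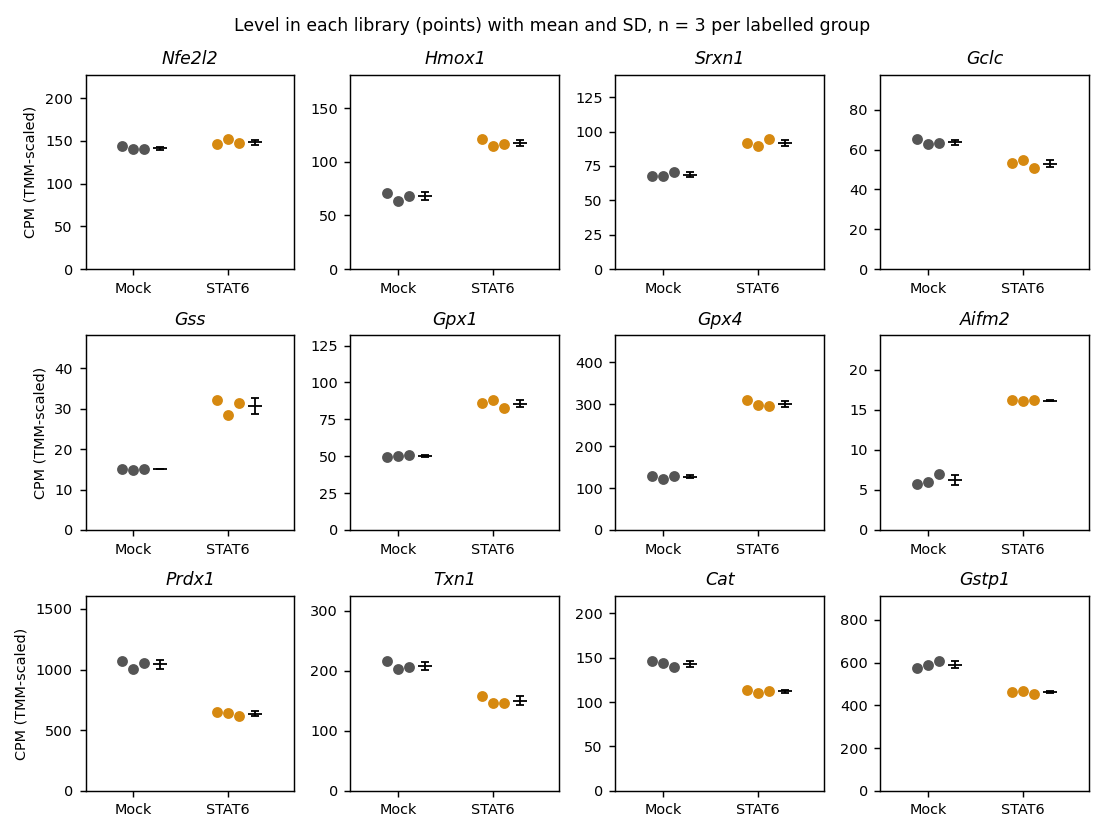
Level of 12 genes in each library (points, TMM-scaled CPM on the y axis, from 0) with the mean and SD beside them, for 3 libraries labelled Mock and 3 labelled STAT6. In 11 of the panels the gene was called; Nfe2l2, at 140.2 to 152 CPM, did not pass the threshold.

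Gpx4 and Aifm2 both sit among genes that were mostly higher too. Because no mouse annotation was used, neighbours were read from the order of human genes of the same name (assembly GRCh38.p14), a check chosen after the values were seen. Of the 20 tested genes nearest to Gpx4, 10 on each side, 18 were higher and 2 lower. Their median log2 fold change was 1.36, beside 1.25 for Gpx4 itself. The nearest were Abca7, Arhgap45, Polr2e, Sbno2, Stk11 and Cbarp. Of the 20 nearest to Aifm2, 17 were higher and 2 lower, with a median of 0.57, less than its own 1.36. Over all 10212 genes placed in this way, the median gene had 7 neighbours higher and 8 lower. Around other raised members the neighbours were mixed: they had a median of -0.01 at Gss, 0.05 at Hmox1, -0.02 at Fth1 and 0.24 at Gpx1. Some lowered members sat among mostly lower genes, such as Prdx1 (2 higher, 13 lower) and Gstm1 (2 and 15). Other lowered members did not, such as Tfrc (9 higher, 5 lower) and Gstp1 (8 and 7). What makes the neighbours of Gpx4 and Aifm2 higher was not tested.

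**Figure D3:**
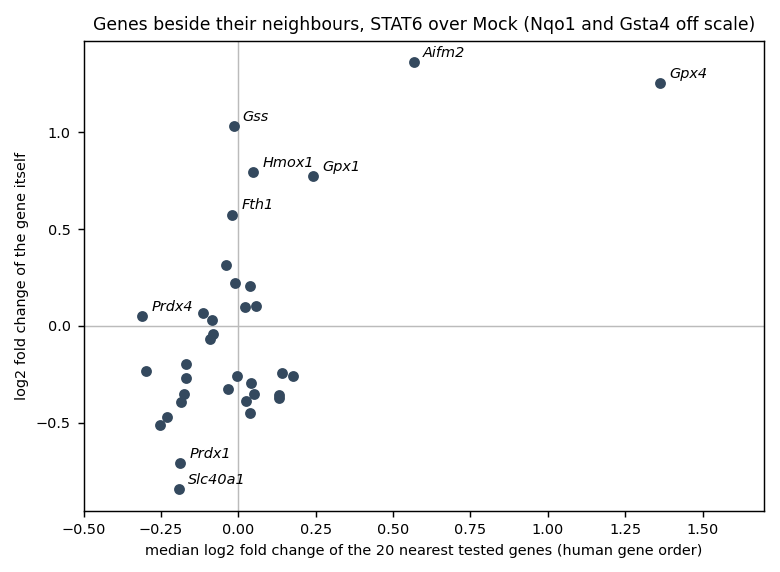
Log2 fold change of each gene (y axis) beside the median log2 fold change of its 20 nearest tested genes in human gene order (x axis), for 35 placed members within the plotted range. Gpx4 (neighbour median 1.36) and Aifm2 (0.57) lie to the right of all other members, while Gss (-0.01), Hmox1 (0.05) and Fth1 (-0.02) lie near 0.

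All 4 genes of the thioredoxin system fell. Thioredoxin reduces protein disulfides and feeds the peroxiredoxins, and its reductase restores it with NADPH. Txn1, the cytosolic thioredoxin, was measured at 159, 146 and 146 CPM against 216, 203 and 206 CPM and fell (log2 fold change -0.47, SE 0.04, adjusted p = 8.72e-14). Its reductase Txnrd1 fell by 0.29, from 426 ± 7.34 to 348 ± 6.10 CPM. The mitochondrial counterparts followed at similar sizes, Txn2 at -0.37 and its reductase Txnrd2 at -0.33. The groups did not overlap for any of the 4 genes, and each change was smaller than 1.5-fold.

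The peroxiredoxins, enzymes that reduce peroxides with electrons from thioredoxin, split 3 higher, 2 lower and 1 not called. Prdx1, the major cytosolic form, moved most. It stood at 651, 644 and 617 CPM in the libraries labelled STAT6 and at 1069, 1004 and 1053 CPM in those labelled Mock, a 1.64-fold fall (-0.71, SE 0.03, adjusted p = 1.36e-21). Prdx3, the form of the mitochondrial matrix, fell by 0.26. Prdx2, another cytosolic form, rose by 0.22, Prdx5, found in mitochondria and peroxisomes, by 0.31, and Prdx6, which uses glutathione, by 0.21. Prdx4, the form of the endoplasmic reticulum, overlapped between groups at 26.9 to 30.4 against 27.6 to 28.3 CPM (0.05, 95% interval -0.07 to 0.17, adjusted p = 0.438; -0.02 with library totals alone). Because Prdx1 had the most counts of the 6, their summed share of all counts was lower, 0.106% ± 0.00284 against 0.150% ± 0.00502.

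Superoxide dismutases changed little. Sod1, the cytosolic enzyme, was at 134 ± 3.78 against 124 ± 4.46 CPM (0.10, SE 0.04, adjusted p = 0.0113), and this call was lost with library totals alone (0.03, adjusted p = 0.467), without Mock replicate 1 (adjusted p = 0.112) and without STAT6 replicate 2 (adjusted p = 0.0862). Sod2, the enzyme of the mitochondrial matrix, overlapped between groups, at 51.0 to 53.3 against 51.0 to 55.8 CPM (-0.04, 95% interval -0.13 to 0.05, adjusted p = 0.438); with library totals alone it was called lower (-0.11, adjusted p = 0.0267). Cat, the peroxisomal catalase, fell without overlap, from 146, 144 and 139.5 CPM to 114, 111 and 113 CPM (-0.35, SE 0.04, adjusted p = 5.96e-11).

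Glutathione transferases, which join glutathione to electrophiles, had no member that passed as higher. Of 7 tested, 4 were lower and 3 were not called. Gsta4, which acts on the lipid peroxidation product 4-hydroxynonenal, was close to absent from the libraries labelled STAT6, with 0, 1 and 2 counts against 109, 125 and 164. The ratio of Mock over STAT6 was 109 (95% interval from counting error 36.9 to 529), given as a description because this gene too passed the filter only through Mock. Gstm1 fell from 105 ± 3.26 to 73.4 ± 2.27 CPM (-0.51) and Gstp1 from 591 ± 16.2 to 463 ± 6.81 CPM (-0.35). Gstm5 was lower by a small margin with overlapping groups (-0.23, adjusted p = 0.00439), and its call was lost without STAT6 replicate 2 (-0.17, adjusted p = 0.0561). Gsto1 stood at 32.1 ± 0.511 against 33.7 ± 0.473 CPM and did not pass (adjusted p = 0.242), but was called lower with library totals alone (-0.14, adjusted p = 0.0159). The microsomal forms Mgst1 (0.03, 95% interval -0.08 to 0.14) and Mgst3 (0.10, 95% interval -0.19 to 0.39) did not pass either, and their signs turned with library totals alone (-0.04 for Mgst1) and without Mock replicate 2 (-0.02 for Mgst3). Mgst2, the only member left untested, had 6 counts in all under the STAT6 label and 1 under Mock. Gstm and Gstp genes have near-identical relatives, and ferritin, thioredoxin and peroxiredoxin genes have processed pseudogenes, so how reads were shared out among these copies is uncertain.

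The ferritin chains moved in opposite directions while the groups overlapped in their sum. Ferritin is a shell of heavy chains, which oxidise iron, and light chains, which help to lay it down as mineral. Fth1 was measured at 3211, 3499.7 and 3554 CPM in the libraries labelled STAT6 and at 2245, 2379.7 and 2275 CPM in those labelled Mock, a 1.49-fold rise (0.57, SE 0.03, adjusted p = 1.44e-11). Ftl1 was measured at 2705, 2735 and 2729 CPM against 3459, 3599 and 3681 CPM and fell 1.31-fold (-0.39, SE 0.03, adjusted p = 1.12e-15). Neither gene overlapped between groups. Together they took 0.599% ± 0.0166 of all counts against 0.603% ± 0.0132, with overlapping groups. On the TMM scale used for the single chains, the groups overlapped in the sum as well. Its mean was then higher under the STAT6 label, so the direction of this small difference depends on the scale. The ratio of Fth1 to Ftl1 counts in a library was 1.19, 1.28 and 1.30 against 0.649, 0.661 and 0.618, which compares groups only, since counts were not divided by transcript length. In bulk RNA, fewer cells of a type and less RNA per cell cannot be told apart.

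**Figure D4:**
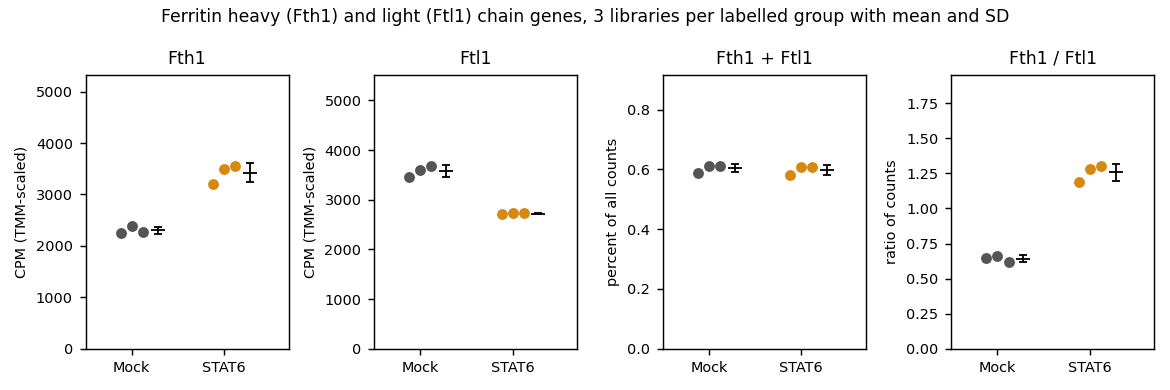
Fth1 and Ftl1 levels (TMM-scaled CPM), their summed share of all counts (percent) and their count ratio, each library as a point with the group mean and SD beside it (y axes from 0). The summed share overlaps between groups (0.599% and 0.603%), while the ratio is 1.19 to 1.30 in the libraries labelled STAT6 and 0.618 to 0.661 in those labelled Mock.

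The 2 members of iron uptake and export, Tfrc and Slc40a1, were lower. Tfrc encodes the transferrin receptor, the main route of iron uptake, whose mRNA is stabilised by iron regulatory proteins when iron is scarce. It stood at 248, 249.9 and 253 CPM against 341, 361 and 326 CPM and fell (-0.45, SE 0.03, adjusted p = 2.79e-14). Slc40a1 encodes ferroportin, the exporter of cellular iron. It was low in both groups, at 5.48, 6.08 and 4.36 CPM against 9.59, 8.79 and 10.1 CPM, a fall by 0.84 (SE 0.11, adjusted p = 4.64e-08) without overlap. The count ratio of Tfrc to Fth1 within a library, uptake beside heavy-chain storage, was 0.0734 ± 0.00348 against 0.149 ± 0.00492. Ftl1, the other ferritin chain, fell by nearly as much as Tfrc (-0.39 and -0.45). The difference in this ratio thus depends on the choice of Fth1.

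A test for a change beyond 1.5-fold (glmTreat) kept 9 of these members, beside 21.5% of all tested genes. Higher were Gpx4, Aifm2, Gss, Hmox1 and Gpx1, and lower were Gsta4, Nqo1, Prdx1 and Slc40a1. Without Nqo1 and Gsta4, 7 of the 36 that passed the filter in both groups were kept, 5 higher and 2 lower.

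Related genes of the same pathways, written as 7 lists with 129 genes, were called at 77.1%, 39 of the 109 tested being higher and 45 lower (median -0.02). This share is near the 72.6% of all tested genes, and the lists differed among themselves.

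Partners and regulators of NRF2 had 5 higher, 1 lower and 4 not called of 10, with a median of 0.13. The small MAF proteins pair with NRF2 on DNA, and Maff (2.52, SE 0.20) and Mafk (0.95, SE 0.07) rose. Maff went from 0.988 ± 0.315 to 5.59 ± 0.453 CPM. Bach1, a repressor of Hmox1 at the same sites, rose by 0.23, and Sqstm1, the autophagy receptor p62 that binds KEAP1, by 0.19. In the list written as other NRF2 targets 6 were higher, 5 lower and 3 not called of 14 (median 0.13). Whether NRF2 drives or represses these genes here was not tested. Txnip, an inhibitor of thioredoxin, rose from 26.6 ± 1.20 to 62.5 ± 0.877 CPM (1.23) and Ephx1, an epoxide hydrolase, rose by 0.78. Slc7a11, also in this list and described below, fell by 1.36, the largest change among its tested genes.

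Among genes that supply cysteine for glutathione, Slc7a11 and Cth were lower. Slc7a11, the cystine carrier of system xc-, was at 25.8, 24.7 and 24.8 CPM against 64.3, 70.9 and 59.6 CPM and fell by 1.36 (SE 0.06, adjusted p = 5.29e-19). Its partner chain Slc3a2, which serves other carriers too, rose by 0.22. In the list of glutathione uptake, use and breakdown 6 were higher, 4 lower and 5 not called of 15 (median 0.04). Cth, which makes cysteine from cystathionine, fell by 1.94, Chac1, which cleaves glutathione, by 1.57, and the peptidase Lap3 by 0.72. Other glutathione peroxidases and transferases had 3 higher, 9 lower and 1 not called of 13, with a median of -0.50. Gstm2 fell by 1.89, whereas Gstt3 (2.11) and Gpx8, a peroxidase of the endoplasmic reticulum (0.62), rose. Among other antioxidant enzymes 9 were higher, 4 lower and 4 not called of 17 (median 0.17). The smallest p were those of Selenow (1.42), the methionine sulfoxide reductase Msrb3 (1.23) and Txndc12 (0.52).

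Further iron genes were evenly divided, 10 higher, 10 lower and 3 not called of 23 (median 0.04). Aco1, the iron regulatory protein 1 that doubles as cytosolic aconitase, went from 65.9 ± 1.62 to 32.2 ± 0.962 CPM (-1.03, SE 0.05, adjusted p = 2.03e-20). Ireb2, iron regulatory protein 2, did not pass (-0.06, adjusted p = 0.157), though it was called lower with library totals alone (adjusted p = 0.0018) and without Mock replicate 3 (adjusted p = 0.0305). Pcbp2, an iron chaperone and RNA-binding protein, fell by 0.79. Ncoa4, the receptor that takes ferritin to the lysosome, rose by 0.51 and Cisd1, an iron-sulfur protein of the outer mitochondrial membrane, by 0.80. Other genes of iron uptake, named after their values were seen, were higher while Tfrc was lower: the importers Slc11a2 (0.27) and Slc39a14 (0.46) and the ferrireductase Steap3 (0.24). In human gene order, most of the 20 nearest tested genes were higher too at Slc39a14 (13 higher, 4 lower), Cisd1 (16 and 2), Ncoa4 (14 and 4) and Steap3 (13 and 6). At Slc11a2 they were not (5 higher, 11 lower). What makes these neighbours higher was not tested.

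Of the 7 related lists, only that of lipid peroxidation and its defence had no gene called higher. It had 0 higher, 12 lower and 5 not called of 17 (median -0.28). Its called share, 70.6%, was near the 72.6% of all tested genes. The list leaves out the members Gpx4 and Aifm2, which were higher. The 3 genes of this list with the smallest p were lipid enzymes. Scd1 (-2.42) and Scd2 (-2.14) are desaturases that make monounsaturated fatty acids, and Acsl3 (-1.33) activates such fatty acids for membranes. Acsl4, which loads polyunsaturated fatty acids into the lipids that ferroptosis oxidises, fell by less, from 78.8 ± 2.51 to 69.6 ± 3.08 CPM (-0.18, SE 0.04, adjusted p = 0.000319).

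**Figure D5:**
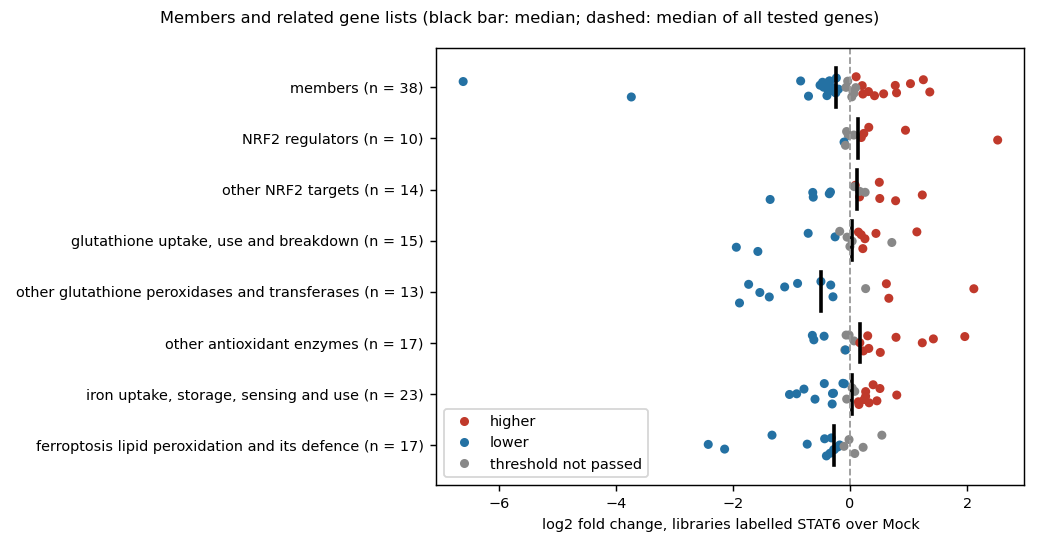
Log2 fold change (x axis) of the 38 tested members and of the tested genes of 7 related lists (y axis, number tested in parentheses), with the list median as a black bar and the median of all tested genes as a dashed line. The list of lipid peroxidation and its defence, without the members Gpx4 and Aifm2, has 12 genes called lower and 0 called higher. That of iron genes has 10 called each way.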

How the data were processed

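The deposited files hold 1 whole-number count per gene symbol and library, with no normalized value. Per the labels' protocols the authors used a stranded mRNA kit. Tools listed in the submitters' processing notes are STAR, Salmon, FastQC and edgeR, with the build GRCh37; for versions, counting and strand setting, nothing is given in the sources used here. Counts were analysed with edgeR 4.0.16 in R 4.3.3: filterByExpr with the groups (12938 genes, 99.9% of counts), TMM factors (0.968 to 1.03), glmQLFit (robust) and a 2-sided glmQLFTest with group as the only term, Benjamini-Hochberg adjustment over all genes tested and a threshold of 0.05. SE is the log2 fold change divided by the root of F, and 95% intervals use the test's degrees of freedom. The members, lists and marker genes were chosen with earlier results of these data known. Named are all members, and of each related list the 3 genes with the smallest p and 10 genes set by name whatever their values, some of which are in both sets. Ratios against 1 to 3 counts carry an exact conditional interval, which covers counting error only. The fit was tested on simulated data in which few genes changed, as many up as down. Such data cannot show how the fit behaves where most genes differ, as they do here. Replicates differed beyond counting noise (median chi-square 1.46 to 2.47 times its expectation), so none was a copy. Alternatives were DESeq2 size factors, library totals alone, no filter, DESeq2 1.42.0, the replicate block, glmTreat beyond 1.5-fold and leaving out each library.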

Additional observations from a re-analysis of the deposited data

How the results depend on the processing

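Of the 32 called members, 30 kept direction and call under scaling by DESeq2 size factors or by library totals alone, an unfiltered gene set, DESeq2, the replicate block and the loss of any 1 library; the exceptions, Sod1 and Gstm5, stand in the report. The test beyond 1.5-fold asks for larger changes and so called fewer genes: 5 members higher and 4 lower, 10 related genes higher and 17 lower, and 1807 of all genes higher and 972 lower. Signs turned only for uncalled members: with library totals alone for Nfe2l2 (-0.00563), Prdx4 (-0.0230) and Mgst1 (-0.0438), and without Mock replicate 2 for Mgst3 (-0.0203; 0.167 at the other end, without Mock replicate 3). Library totals alone moved the median of all genes by -0.07 and gave 31 related genes higher and 53 lower, and 4050 of all genes higher and 5475 lower. The main fit did not pair libraries by replicate number. Deviations of same-numbered libraries correlated at 0.0729, 0.103 and 0.00609, and those of differently numbered ones at -0.124 to 0.0624. Such small values cannot show whether the numbers stand for a pairing. The replicate block gave 11 members higher and 21 lower, as without it, and 4643 higher and 4779 lower over all genes. Depth limits Nqo1, Gsta4 and Mgst2, which had few or no counts in a group.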

Other observations

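GPX1, GPX4 and the thioredoxin reductases are selenoproteins, which carry selenocysteine in their active site, and in this class, chosen after the values were seen, genes moved both ways. Of the 24 selenoprotein genes, 18 were tested, of which 7 were higher, 6 lower and 5 not called, with a median log2 fold change of -0.04. The called share, 72.2%, was near the 72.6% of all tested genes. Besides Gpx1, Gpx4 and Selenow the higher ones were Selenop, a secreted selenium carrier (1.96), Selenok (0.48), Selenon (0.37) and Msrb1 (0.32). The 3 thioredoxin reductases were all lower, Txnrd3 by most (-0.62), together with Selenos (-0.57), Selenoi (-0.31) and Selenoh (-0.29). Sephs2, which makes the selenium donor, did not pass (-0.09, adjusted p = 0.186, edgeR). The other 6 genes, among them Gpx2 and Gpx3, had too few counts to be tested.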
